A study of Mus musculus with 6 samples.

Results

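The MYC, MAX and MXD network is a group of basic helix-loop-helix leucine zipper transcription factors, and 10 of its genes were followed here in a mouse model of ovarian cancer: *Myc*, *Mycn*, *Mycl1* (now *Mycl*), *Max*, *Mxd1*, *Mxd3*, *Mxd4*, *Mxi1*, *Mnt* and *Mlx*. The members were chosen by gene symbol, and all 10 were present among the 20405 genes of the deposited expression table. Where a symbol had several probe sets, the brightest on average was read. Total RNA of M0505, a line of ovarian surface epithelial cells from FVB/N mice, was hybridized to 3 Affymetrix mouse whole-transcript gene arrays at early passage. RNA of STOSE, the spontaneously transformed line that arose from M0505 by continued passage, was hybridized to another 3. Both lines were kept in the same ovarian surface epithelial medium, with fetal calf serum and EGF. Each condition is therefore 1 cell line, aneuploid cells were found in both by the study's karyotyping, and passage number and transformation cannot be told apart. The labels call the arrays of a line biological replicates without saying that the cultures were separate, so the p-values measure the spread between these arrays.

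MYC proteins bind DNA at E-boxes as dimers with MAX and raise transcription of genes for ribosome production, nucleotide synthesis and cell growth. The MXD proteins (MXD1, MXD3, MXD4 and MXI1) and MNT compete with MYC for MAX and recruit the SIN3 and histone deacetylase complexes, and MXD genes are typically used in cells that leave the cell cycle. MLX pairs with MNT, MXD1 and MXD4 and with the glucose-sensing factors MLXIP and MLXIPL, which links the network to metabolism, and gain of *MYC* is among the most frequent copy number changes of human high-grade serous ovarian cancer.

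*Mycn* and *Mxd4* were the members that differed by at least 2-fold between the lines, in opposite directions, and the RefSeq sequence upstream of their start sites is shown for that reason. *Max*, *Mlx* and *Mnt* are shown in a shorter stretch because their promoters hold an E-box, the site at which the network acts. Sequences are RefSeq promoter stretches of GRCm38.p6, written 5′ to 3′ on the strand of the gene, with the capitals marking CACGTG, except in *Mycn*, where they mark TTTGGCGC and the overlapping GCGCGAAA, which is TTTCGCGC read on the other strand.
Mycn (chr12:12941837-12942086, minus strand): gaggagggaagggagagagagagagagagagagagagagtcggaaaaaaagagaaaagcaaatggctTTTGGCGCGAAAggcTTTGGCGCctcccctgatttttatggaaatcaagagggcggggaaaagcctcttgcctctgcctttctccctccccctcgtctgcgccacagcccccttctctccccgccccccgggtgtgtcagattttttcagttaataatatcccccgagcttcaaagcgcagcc
Mxd4 (chr5:34187711-34187960, minus strand): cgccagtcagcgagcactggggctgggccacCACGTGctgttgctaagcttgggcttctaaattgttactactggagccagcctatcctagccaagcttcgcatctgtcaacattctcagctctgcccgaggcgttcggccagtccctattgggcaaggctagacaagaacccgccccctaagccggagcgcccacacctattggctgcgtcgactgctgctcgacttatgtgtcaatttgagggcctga
Max (chr12:76962246-76962305, minus strand): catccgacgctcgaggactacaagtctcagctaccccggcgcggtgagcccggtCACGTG
Mlx (chr11:101087216-101087275, plus strand): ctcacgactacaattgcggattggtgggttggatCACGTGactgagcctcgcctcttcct
Mnt (chr11:74830767-74830826, plus strand): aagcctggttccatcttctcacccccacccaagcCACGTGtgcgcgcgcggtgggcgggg
The stretch of *Mycn* ends at the base before the start site, as does that of *Mxd4*. The canonical E-box CACGTG, which reads the same on both strands, was searched in windows from 250 bases before to 50 bases after a start site, and it stood in 7.15% of 32851 windows and in 8.09% of 27025 genes with a window. It was present in 4 of the 9 members with a window, beginning 3 bases upstream of the start in *Max*, 40 in *Mlx*, 123 in *Mnt* and 219 in *Mxd4*. The windows of *Mycn*, *Mycl1*, *Mxd1* and *Mxd3* and the 3 windows of *Mxi1* held none, which says only that these letters were not in them, and *Myc* was not among the genes with a window. The letters TTTGGCGC and TTTCGCGC, a form of the site of E2F factors, were searched on both strands after the *Mycn* sequence had been seen. They occurred in 0.813% of windows, and *Mycn* held 3 matches, beginning 183, 179 and 168 bases upstream, of which the first pair overlap. These matches are a description of the letters and not of binding.

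The array values are log2 RMA values, in which a step of 1 is a doubling of the signal. Array medians lay between 6.25 and 6.49, correlation was 0.997 to 0.999 between arrays of a line and 0.943 to 0.95 between lines across genes, and no array stood apart from its line. A level was read as above background when it was over 4.72, the 95th percentile of 1134 olfactory receptor probe sets, and all 10 members had means above it in both lines. The 11 ovarian surface epithelium markers were above background in both lines, but their summed linear signal was 30850 to 32409 in M0505 arrays and 19333 to 20825 in STOSE arrays. The keratins *Krt19* (mean 11.17 against 5.61), *Krt8* (11.37 against 6.82) and *Krt7* (11.26 against 10.23) were lower in STOSE cells by at least 2-fold. *Krt18*, *Wt1*, *Upk3b*, *Upk1b*, *Msln*, *Lrrn4* and *Gpm6a* differed by less than 2-fold, from -0.84 to -0.15, and *Cdh2* differed by 0.18. Of markers of other cells, 3 of 6 granulosa genes were above background in each line (summed signal 921 to 1039 against 210.2 to 234.7), as were 4 and 3 of 6 endothelial genes (860 to 940.4 against 147 to 154), 2 and 4 of 4 oviduct genes (123 to 126 against 212 to 248) and 1 of 6 leukocyte genes in each (121 to 132 against 129 to 143). 1 gene made most of the fall in the granulosa sum, *Inha* (9.61 against 5.68). *Nr5a2* (-0.70, limma adjusted p = 5.06e-04) and *Foxl2* (-0.37, adjusted p = 0.00243) were also lower, by less than 2-fold. *Cyp19a1* differed by -0.13, and *Amh* and *Fshr* were higher by 0.27 and 0.11. *Kdr* (9.58 against 4.41) made most of the fall in the endothelial sum, where *Cdh5*, *Tie1*, *Tek* and *Emcn* differed by 0.20, 0.22, 0.01 and 0.06. *Ovgp1* (5.24 against 6.87, limma adjusted p = 6.58e-06) made most of the rise in the oviduct sum, where *Pax8* and *Foxj1* differed by 0.36 and 0.22. The part of these shifts in the differences below was not tested.

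*Mycn* was higher and *Mxd4* was lower in STOSE cells, and these were the members called at an adjusted p under 0.05 and at least 2-fold. The count of 1 higher and 1 lower among 10 members stands beside 4.9% of all genes called higher and 7.59% called lower. By adjusted p alone, 5 members were higher (*Myc*, *Mycn*, *Max*, *Mxd3* and *Mlx*), beside 31.6% of all genes. By the same rule 3 were lower (*Mxd1*, *Mxd4* and *Mxi1*), beside 24.8% of all genes. In 8 of the 10 members the arrays of the lines did not overlap, against 64.6% of all genes. The median difference of the members was 0.11 on the log2 scale and that of all genes 0.08. The members and every gene of the 5 partner and target lists below were above background in either line, but only 14831 of all 20405 genes were. A fit restricted to those 14831 genes called 993 higher and 1532 lower, so the shares of all genes used here include many dim genes.

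**Figure D1:**
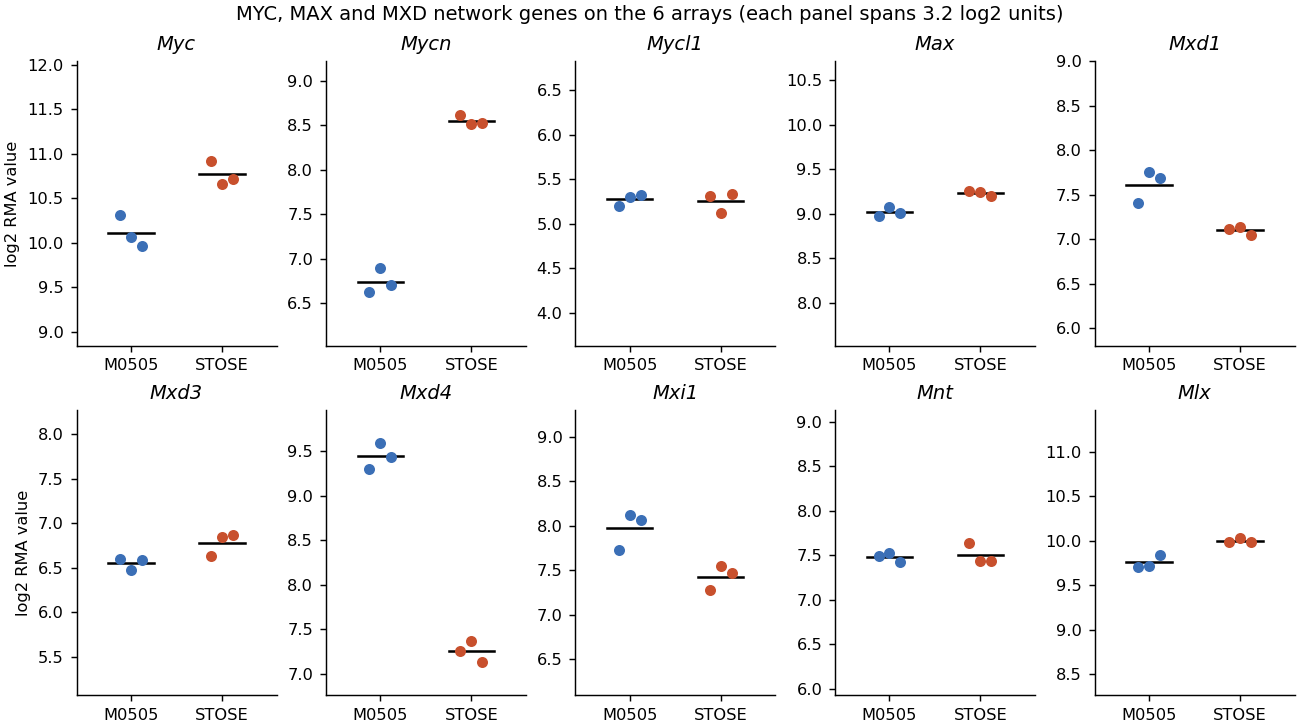
Log2 RMA value (vertical axis) of each network member on the 3 M0505 arrays (blue) and the 3 STOSE arrays (orange); black lines are the means and every panel spans the same number of log2 units. *Mycn* sits near 6.74 in M0505 and 8.54 in STOSE, *Mxd4* near 9.44 and 7.26, and the arrays of the lines overlap in *Mycl1* and *Mnt*.

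Among the MYC genes, *Mycn*, the paralog best known from neural development and neuroblastoma, had the largest rise. Its log2 values were 6.63, 6.90 and 6.70 on the M0505 arrays and 8.61, 8.51 and 8.52 on the STOSE arrays. Every STOSE array was above every M0505 array by more than the spread within a line. The means were 6.74 ± 0.14 and 8.54 ± 0.06 (SD, n = 3), a difference of 1.80 (SE 0.08, 95% confidence interval 1.62 to 1.99) or 3.49-fold, with a limma adjusted p of 4.86e-07. *Mycn* ranked 244 among the 1000 genes called higher. When each array was left out in turn, the fold ranged from 3.35 to 3.68. In RNA of a whole culture, more cells using a gene and more RNA per cell cannot be told apart.

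*Myc*, the member most widely used in dividing cells, was higher by the adjusted p alone. Its values were 10.31, 10.06 and 9.96 in M0505 and 10.92, 10.66 and 10.72 in STOSE. All 3 STOSE arrays were above all 3 M0505 arrays. The difference was 0.66 (SE 0.11, 95% confidence interval 0.41 to 0.90) or 1.58-fold (adjusted p = 8.60e-04), which passed the adjusted p but not the 2-fold threshold. Leaving out each array gave 1.49 to 1.69-fold. *Mycl1*, a paralog first found in lung cancer, lay close above the background level in both lines. It measured 5.20, 5.30 and 5.33 in M0505 and 5.31, 5.13 and 5.33 in STOSE, and the arrays overlapped. The difference of -0.02 (95% confidence interval -0.19 to 0.15, adjusted p = 0.839) was not called and turned to 0.18 when arrays were centred on their medians.

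*Max*, the obligate partner of the MYC and MXD proteins, had values of 8.97, 9.08 and 9.01 in M0505 and 9.26, 9.24 and 9.20 in STOSE. The groups did not overlap, and the difference was small. It was 0.21 (SE 0.06) or 1.16-fold, with an adjusted p of 0.0136. *Mlx*, the MAX-like partner, was similar, with 9.71, 9.72 and 9.84 in M0505 and 9.98, 10.03 and 9.99 in STOSE. The difference of 0.24 (SE 0.06) had an adjusted p of 0.00877, and its arrays did not overlap.

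The genes of the MXD repressors moved in different directions. *Mxd4* had the largest difference of any member, with 9.30, 9.59 and 9.44 in M0505 and 7.26, 7.37 and 7.14 in STOSE. All 3 STOSE arrays were far below the M0505 arrays. The means were 9.44 ± 0.14 and 7.26 ± 0.12 (SD, n = 3), a difference of -2.19 (SE 0.09, 95% confidence interval -2.40 to -1.98) or 4.56-fold lower, with an adjusted p of 3.58e-07. It ranked 415 among the 1548 genes called lower, and the difference ranged from -2.26 to -2.12 when each array was left out.

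*Mxd1* and *Mxi1*, whose proteins appear as cells differentiate, were lower by less than 2-fold. *Mxd1* had 7.40, 7.76 and 7.69 in M0505 and 7.12, 7.14 and 7.05 in STOSE, without overlap. It fell by 0.51 (SE 0.09) or 1.43-fold, with an adjusted p of 0.00175. *Mxi1* had 7.72, 8.12 and 8.06 in M0505 and 7.27, 7.54 and 7.46 in STOSE, also without overlap. Its difference was -0.54 (SE 0.12), with an adjusted p of 0.00401. A second, dimmer probe set of *Mxi1* gave a difference of 0.01 (5.53 against 5.54, adjusted p = 0.940), so the probe sets of this gene disagree. No other member had more than 1 probe set.

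*Mxd3*, which unlike its relatives is used by cells in S phase, had 6.59, 6.47 and 6.58 in M0505 and 6.63, 6.85 and 6.86 in STOSE. Its lowest STOSE array lay just above the highest M0505 array. The difference of 0.23 (SE 0.08) had an adjusted p of 0.0353 and passed in only 2 of the 6 fits that left out an array, with an adjusted p of up to 0.116. It also did not pass by the methods' t-test (adjusted p = 0.0906) or by limma with trend and robust estimation (adjusted p = 0.0516). *Mnt*, the broadly used repressor of the network, had 7.50, 7.53 and 7.43 in M0505 and 7.63, 7.43 and 7.43 in STOSE. The arrays overlapped, and the difference of 0.02 (95% confidence interval -0.15 to 0.18, adjusted p = 0.867) was not called, but it was 0.22 with an adjusted p of 0.0178 when arrays were centred and turned to -0.012 without M0505 array 3 and to -0.052 without STOSE array 1.

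**Figure D2:**
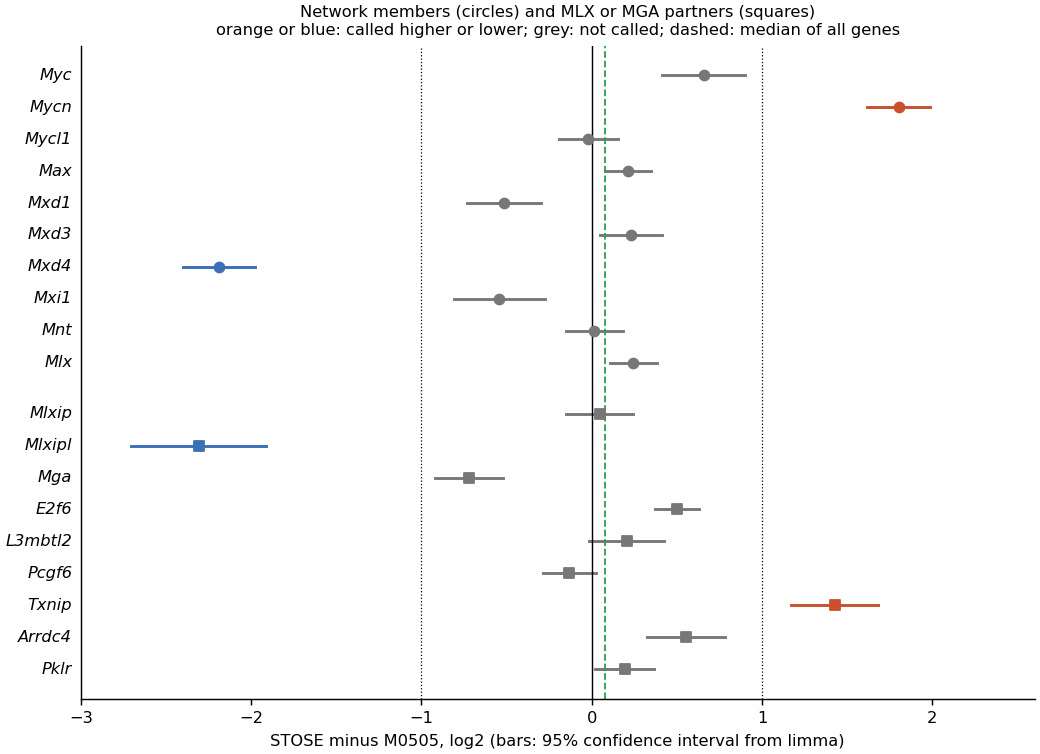
Difference STOSE minus M0505 on the log2 scale (horizontal axis) for the network members (circles) and the MLX and MGA partner genes (squares), with 95% confidence intervals from limma; orange and blue mark genes called higher and lower and the dotted lines mark 2-fold. *Mycn* (1.80) and *Txnip* (1.43) lie above 2-fold, and *Mxd4* (-2.19) and *Mlxipl* (-2.31) lie below it.

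The scaling of the arrays bears on all of these differences. Centring each array on its median over all genes added 0.20 to every difference, so the median of all genes went from 0.08 to 0.28 and the share of called genes that were higher went from 39.2% to 55.5%. Relative to the median of all genes as deposited, *Mycn* differed by 1.73, *Myc* by 0.58, *Max* by 0.14, *Mlx* by 0.17 and *Mxd3* by 0.16. The lower members stood at -2.26 for *Mxd4*, -0.62 for *Mxi1* and -0.59 for *Mxd1*, and *Mycl1* and *Mnt* at -0.10 and -0.06. Under centring *Myc* was at 0.86 and *Mxd4* at -1.99, so the call for each of the 10 members at the 2-fold threshold was as before.

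**Figure D3:**
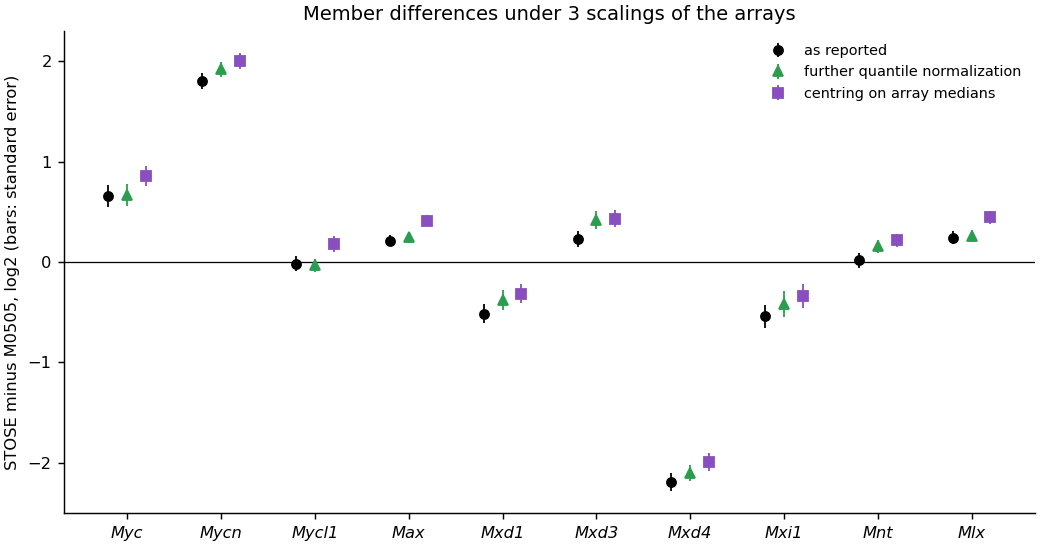
Difference STOSE minus M0505 of each member on the log2 scale with its standard error, as deposited (black circles), after a further quantile normalization (green triangles) and after centring each array on its median (purple squares). Centring lifts every member by 0.20, which turns *Mycl1* from -0.02 to 0.18, while *Mycn* and *Mxd4* stay beyond 2-fold in each scaling.

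The genes around the members were read in RefSeq order, because gain or loss of a stretch of chromosome can move neighbours together. The chromosomes that carry the members had medians, after subtraction of that of all genes, from -0.07 on chromosome 5 (*Mxd4*) to 0.10 on chromosome 4 (*Mycl1*). The 5 measured genes on each side of *Myc* had a median difference of -0.01, from -0.50 to 0.96, and 0 of 10 were called, since none reached 2-fold. Of all genes, 4.9% were called higher and 7.59% lower. At an unadjusted limma p under 0.05, 4 of these neighbours were higher and 2 lower. Of these 10, 6 were above background in either line, and the next gene, the noncoding RNA *Pvt1*, rose by 0.96 (adjusted p = 3.42e-04 by limma, without the 2-fold threshold). The neighbours of *Mycn* and *Mxd4* were read after the values of these genes had been seen. The 10 around *Mycn* had a median of 0.43, from -0.60 to 1.84. Of these, 1 was called higher, *Gen1*, a Holliday junction nuclease (1.84), beside 4.9% of all genes. *Ddx1* and *Nbas*, which lie next to *Mycn* and are often coamplified with it in neuroblastoma, were at 0.62 and 0.63, and *Fam49a* on the other side was at -0.46. By limma adjusted p alone, *Gen1*, *Ddx1*, *Nbas*, *Msgn1* (0.26), *Smc6* (0.95), *Vsnl1* (0.34, under background) and *Gm4929* (0.52) were higher. *Fam49a* and *Fam84a* (-0.60) were lower by that rule, and *Gm16497* (0.08) did not pass. Of all genes, 31.6% were higher and 24.8% lower by adjusted p alone. Around *Mxd4* the median was 0.00, from -3.19 to 0.84, and 2 of 10 were called lower, beside 7.59% of all genes. These were *Nat8l*, the enzyme that makes N-acetylaspartate (-3.19), and *Gm1673* (-1.36). The study's karyotyping reported loss of chromosome 5, which carries *Mxd4*, in all STOSE cells examined. In all M0505 cells examined it reported loss of chromosome 12, which carries *Mycn* and *Max* and whose median stood at 0.02. Chromosome 4, which carries *Mycl1*, had altered ends in both lines. The part of these changes in the differences was not tested. Copy number was not measured here.

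**Figure D4:**
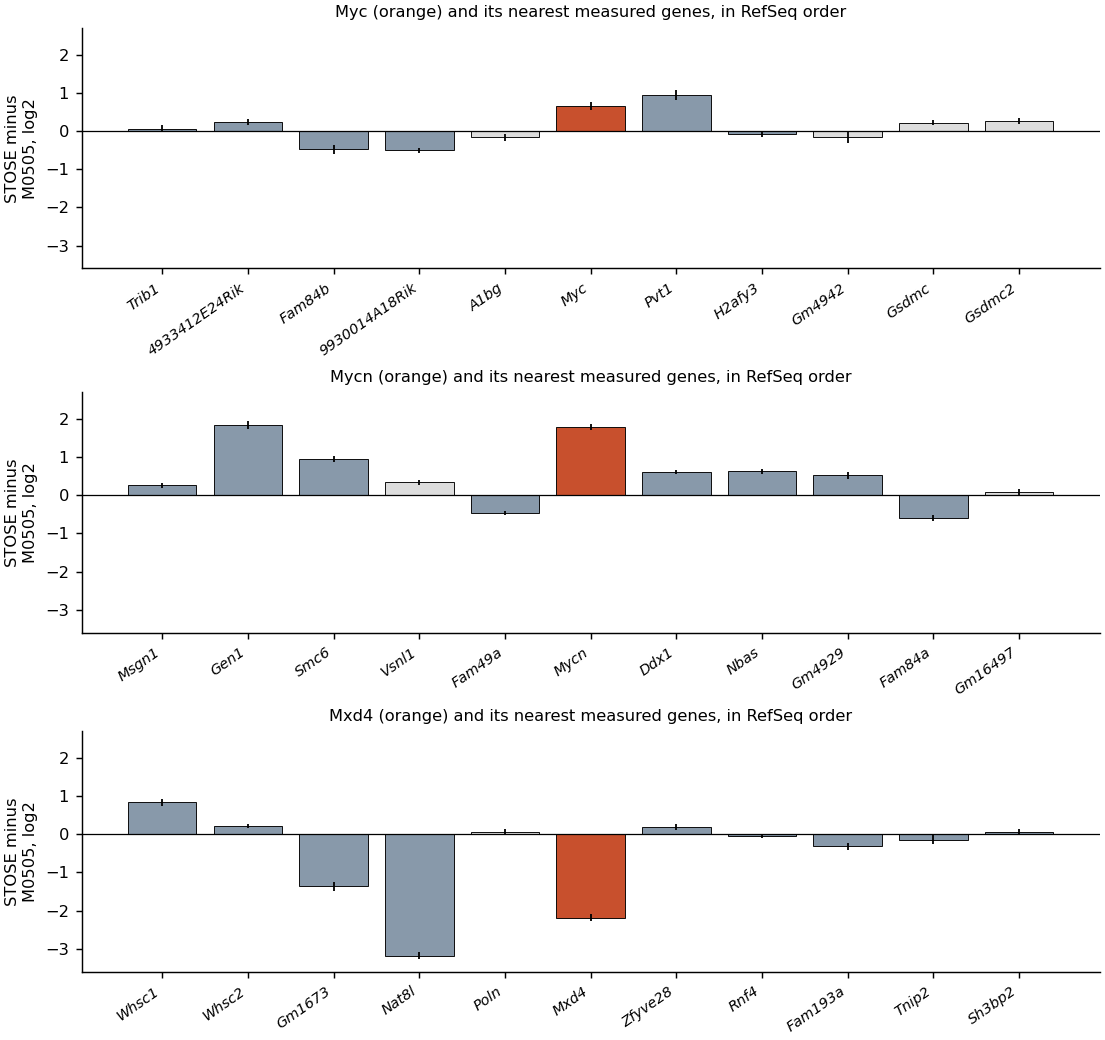
Difference STOSE minus M0505 on the log2 scale, with standard errors, of *Myc*, *Mycn* and *Mxd4* (orange) and the 5 measured genes on each side in RefSeq order; blue-grey bars are above background in either line and pale bars are not. *Pvt1* stands at 0.96 beside *Myc*, *Gen1* at 1.84 near *Mycn* and *Nat8l* at -3.19 near *Mxd4*.

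The MLX and MGA branch comprises the other dimer partners and their best known target genes. Among its 9 genes 1 was called higher and 1 lower, and by adjusted p alone 3 were higher and 2 lower, with a median of 0.19. The latter shares, 33.3% and 22.2%, lie near the 31.6% and 24.8% of all genes, and the 11.1% called in each direction is 1 gene, beside 4.9% and 7.59%. *Mlxipl*, which encodes the glucose-responsive factor ChREBP, had 8.14, 7.74 and 7.35 in M0505 and 5.34, 5.47 and 5.50 in STOSE. It fell by 2.31 (SE 0.17, adjusted p = 8.46e-06), or 4.95-fold. Its paralog *Mlxip*, encoding MondoA, was at 8.91, 8.82 and 8.64 in M0505 and 8.91, 8.86 and 8.74 in STOSE, with a difference of 0.05 (adjusted p = 0.668). *Txnip*, a thioredoxin-binding arrestin that is a target of both factors, had 8.26, 8.05 and 7.82 in M0505 and 9.58, 9.44 and 9.40 in STOSE. It rose by 1.43 (SE 0.11, adjusted p = 1.04e-05). The related arrestin *Arrdc4* rose by 0.55 (adjusted p = 0.00158), below 2-fold. *Pklr*, a glycolytic target of ChREBP in liver, was at 0.19 (adjusted p = 0.0576). *Mga*, a MAX partner that carries a second DNA-binding domain, fell by 0.72 (adjusted p = 1.41e-04). Of the genes of its repressor complex, *E2f6* rose by 0.50 (adjusted p = 9.10e-05), and *L3mbtl2* (0.21, adjusted p = 0.101) and *Pcgf6* (-0.13, adjusted p = 0.135) did not pass.

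Genes of proteins that the network recruits, 22 in all, had a median of 0.31, with 2 called higher (9.09%, against 4.9% of all genes) and 0 lower (against 7.59%). By adjusted p alone 14 were higher (63.6%, against 31.6% of all genes) and 2 lower (9.09%, against 24.8%), and at an unadjusted limma p under 0.05, 15 were higher and 4 lower. The methods' t-test also gave 0 lower calls at 2-fold. *Sap30*, a subunit of the SIN3 and histone deacetylase complex, rose by 1.39 (SE 0.08, adjusted p = 1.42e-06). *Ruvbl2*, a helicase of chromatin complexes that bind MYC, rose by 1.03 (SE 0.08, adjusted p = 8.83e-06) and was under 2-fold without M0505 array 2, which left 1 call. Of 18 genes that act on MYC protein stability or function, 4 were called higher (22.2%, against 4.9% of all genes) and 1 lower (5.56%, against 7.59%), and the median was 0.20. The higher genes were *Aurka*, a mitotic kinase that shields N-MYC from degradation (1.25, SE 0.08, adjusted p = 4.62e-06), *Bin1*, an adaptor protein that interacts with MYC (1.18), *Skp2*, a ubiquitin ligase subunit (1.16), and *Cip2a*, an inhibitor of the phosphatase PP2A (1.09). *Pim1*, a kinase that phosphorylates MYC, fell by 1.30 (SE 0.06, adjusted p = 3.84e-07).

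Genes activated by MYC in other cells had the largest share of higher calls of the 5 lists. Of 66 such genes, 22 were called higher (33.3%, against 4.9% of all genes) and 1 lower (1.52%, against 7.59%). By adjusted p alone 57 were higher (86.4%, against 31.6%) and 4 lower (6.06%, against 24.8%). Their median was 0.76, against 0.08 for all genes, and in 63 of 66 the arrays did not overlap, against 64.6% of all genes. All 5 lists were chosen with earlier results of these data known, so these shares describe the lists and test nothing. *Mrto4*, a ribosome assembly factor, had 6.71, 6.65 and 6.69 in M0505 and 8.90, 9.02 and 8.81 in STOSE. It rose by 2.22 (SE 0.07, adjusted p = 6.65e-08), or 4.67-fold. For *Mrto4* and the other list genes only the brightest probe set was read. Whether that probe set lies in the gene itself or in a copy elsewhere in the genome was not checked. *Tcof1*, which promotes ribosomal RNA transcription, rose by 1.76 on the log2 scale, *Cad*, which starts pyrimidine synthesis, by 2.83-fold, and *Rrp9*, a nucleolar RNA-binding protein, by 1.46 on the log2 scale. *Tert*, the telomerase catalytic subunit, went the other way, with 6.86, 6.98 and 6.73 in M0505 and 5.65, 5.23 and 5.39 in STOSE, and fell by 1.43 (SE 0.11, adjusted p = 1.05e-05). Leaving out each array gave 21 to 24 higher calls, and centring gave 30. The study reported faster growth and a larger share of cells in S phase for STOSE than for M0505. The part of that difference in these counts was not tested.

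Genes that MYC represses in other cells did not move one way. Of 24, 3 were called higher (12.5%, against 4.9% of all genes) and 6 lower (25%, against 7.59%), and the median was -0.12. By adjusted p alone 7 were higher (29.2%, near the 31.6% of all genes) and 10 lower (41.7%, against 24.8%). *Ndrg2*, a gene of the N-myc downregulated family, had 10.06, 10.36 and 10.37 in M0505 and 6.42, 6.36 and 6.26 in STOSE. It fell by 3.91 (SE 0.10, adjusted p = 1.82e-08), or 15.1-fold. *Cdkn2b*, encoding an inhibitor of cyclin D kinases, fell by 3.75, *Clu*, a secreted chaperone, fell by 3.14, and *Hbp1*, a transcriptional repressor, fell by 1.17. In the other direction, *Thbs1*, an inhibitor of angiogenesis, rose by 3.38 (SE 0.09, adjusted p = 2.29e-08). The chemokine *Cxcl12* rose by 2.62 and the zinc finger factor *Klf6* by 1.07. Centring cut the lower calls from 6 to 3. The E-box CACGTG stood in the promoter windows of 17 of 57 activated and 5 of 18 repressed targets with a window (29.8% and 27.8%), beside 8.09% of all genes with one. The other lists held it in 2 of 9 partners (22.2%), 1 of 19 cofactors (5.26%) and 1 of 15 turnover genes (6.67%).

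**Figure D5:**
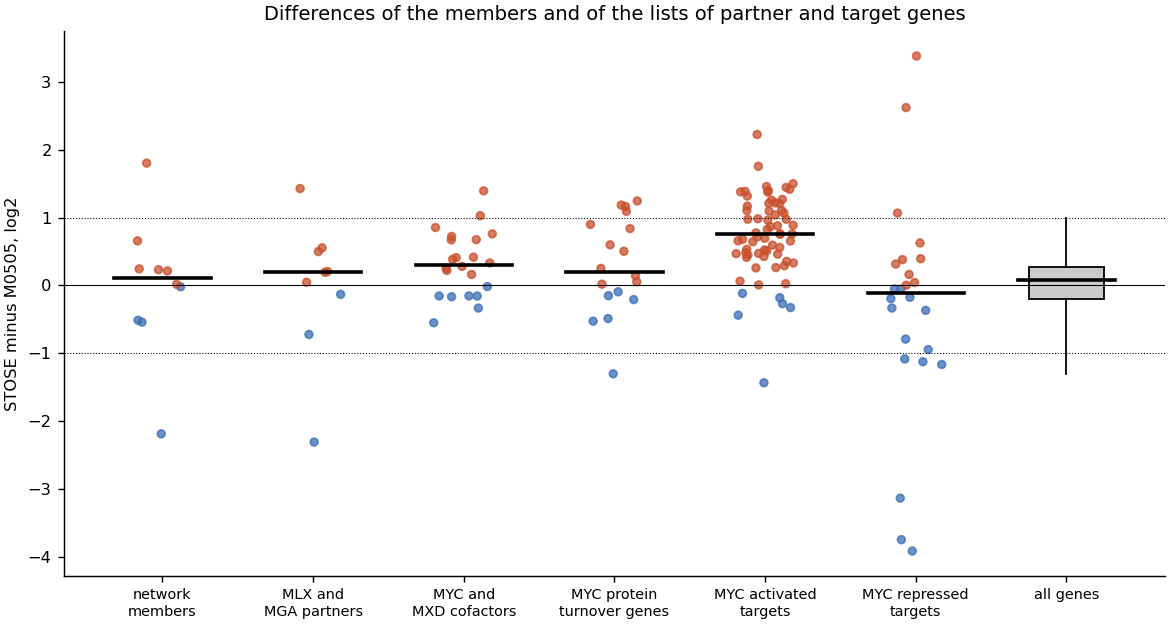
Difference STOSE minus M0505 on the log2 scale for each gene of the network and of the 5 lists (orange above 0, blue below), with black lines at the medians; the grey box spans the interquartile range of all genes with whiskers from the 5th to the 95th percentile. The activated targets sit highest, at a median of 0.76 against 0.08 for all genes, and the repressed targets spread from -3.91 to 3.38.

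The genes whose pattern over the 6 arrays was most like *Myc*, by the root mean square difference of values centred on each gene's mean, were *Dlk2* (0.036), *Solh* (0.037) and *Xpo4* (0.040). Each is a description of 6 values, and nothing of function or control is drawn from it.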

How the data were processed

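RNA of M0505 (3 arrays) and STOSE (3 arrays) was measured on Affymetrix Mouse Gene 1.0 ST arrays. The authors deposited 1 table of log2 values for 28944 probe sets, the output of RMA (background correction, quantile normalization between arrays and summary of the probes of a set) in Affymetrix Expression Console according to the submitters' processing notes. The software versions, annotation release and genome build are not given in the sources used here. The table's columns of line means and linear fold change, a signed ratio computed by the authors, were not used.

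Of the probe sets, 23530 carried a gene symbol. The brightest probe set over the 6 arrays was kept for each of 20405 genes. The lines were compared in R 4.3.3 with the lmFit and eBayes functions of limma (version 3.58.1) without covariates, and p-values were adjusted by the Benjamini-Hochberg method over all genes. A gene was called at an adjusted p under 0.05 and at least 2-fold. The prior had 4.07 degrees of freedom. Tested on simulated data for this comparison, the code recovered 198 of 200 changed genes among 20405 with 0 false calls. All the planted differences were larger than 2-fold, so this run says nothing of smaller ones. Arrays have no depth of reads, and their number limits the precision. An exact permutation test of 3 against 3 arrays cannot fall below 0.05 and was not used.

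The members and lists were chosen with earlier results of these data known. All 172 list genes were found, 170 by symbol and 2 by a synonym. Named genes were every member and MLX or MGA partner, the 4 largest rises and falls of each other list past the threshold without overlap, the neighbours of *Myc*, the 3 genes most like *Myc* and marker genes where their values were needed. The genes named around *Mycn* and *Mxd4* fall outside this rule and were chosen after their values were seen. Gene order, names and chromosomes came from RefSeq genes of GRCm38.p6, which placed 19866 genes (97.4%).

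Alternatives were a further quantile normalization, centring on array medians, leaving out the dimmest 25% of genes or those under background in both lines, the mean of a gene's probe sets, the methods' t-test (adjusted or not), limma with trend and robust estimation, treat against 1.5-fold, other fold thresholds, a replicate block and leaving out each array.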

Additional observations from a re-analysis of the deposited data

How the results depend on the processing

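Of 366 values under an alternative, 342 kept their direction and their side of the threshold (adjusted p and 2-fold), or for counts lay within 1.5 times of that reported. Members that stayed under 2-fold in the same direction counted as kept whatever their adjusted p, as *Mxd3* did. The count of 342 therefore does not show how steady the adjusted p was. *Mycn* and *Mxd4* were called under each alternative run. With adjusted p alone, the calls higher and lower were 5 and 3 for the members, 3 and 2 for the MLX and MGA partners, 14 and 2 for cofactors, 9 and 3 for turnover genes, 57 and 4 for activated targets and 7 and 10 for repressed targets. The shares of the turnover genes were 50% and 16.7%, beside 31.6% and 24.8% of all genes. With adjusted p and 1.5-fold, 2 members, 7 cofactors, 7 turnover genes and 41 activated targets were higher and 2 partners were lower. At that setting 2245 of all 20405 genes were higher and 2871 lower. These counts rose because the fold threshold was lower. Centring left 3 repressed targets lower, and turned *Mycl1* to 0.18. When each array was left out, cofactors called higher ranged from 1 to 2 (1 without M0505 array 2), *Mycl1* from -0.059 to 0.045 (above 0 without M0505 array 3 or STOSE array 2) and *Mnt* from -0.052 to 0.050 (below 0 without M0505 array 3 or STOSE array 1). The cause was not tested.

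The lines share replicate numbers, and the deviations of same-numbered arrays from their line means correlated at r = 0.26, 0.04 and 0.25 across genes. The labels do not say whether equal numbers mark arrays handled together, and these values cannot settle it. With the replicate number as a block, 1001 genes were higher and 1548 lower, against 1000 and 1548, and among members the calls were 1 and 1, with *Myc* at an adjusted p of 1.98e-04 and *Mxd3* at 0.0454. The block took the SE from 0.11 to 0.06 for *Myc* and from 0.12 to 0.06 for *Mxi1*, while that of *Mycn* stayed at 0.08.

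No array holds copy number, so levels per gene copy are not known. *Mycl1* lay close to background in both lines. Probe sets of different genes were not set against each other.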
